A study of Mus musculus with 15 samples.

Results

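At embryonic day E8.75, 2 Cre-labelled lineages of the mouse heart were compared by RNA-seq of single cells. The Isl1Cre cells came from mice carrying Isl1Cre::Rosa26tdTomato, and the Nkx2-5Cre cells came from mice carrying Nkx2-5Cre::Rosa26tdTomato. All cells with at least 1000 genes above 0 CPM (a gene's counts scaled to a fixed total in each cell) were used, which gave 325 of the 352 cells at this stage and of 1339 such cells in the series. The Isl1Cre libraries kept 62 of 80 and 81 of 88 cells, and the Nkx2-5Cre libraries kept 94 of 96 and 88 of 88 cells. Both groups carry the same Rosa26 reporter, a fluorescent protein gene switched on for good by Cre and inherited by daughter cells, so a cell need not express the driver gene when it is collected. Neither group is a wild type or untreated control. The titles of all 4 libraries carry embryo No.1, which does not say whether the libraries of a lineage came from separate embryos. The p-values therefore rest on a spread that may be technical. Lineage and embryo cannot be told apart. Cells were picked by mouth pipette after FACS or after trypsin alone; the labels do not tie either route to a library.

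The vertebrate heart tube forms from a first wave of cardiac mesoderm and lengthens as second heart field cells join it at the arterial and venous poles. Isl1 is a transcription factor gene known for its expression in second heart field progenitors, and Nkx2-5 is a transcription factor gene of cardiac progenitors and of the myocardium. Outflow tract, chamber and inflow myocardium differ in their gene expression, and the endocardium lines the tube as an endothelium.

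The kept cells held 8167445 and 11365036 recovered counts in the Isl1Cre libraries, and 14893165 and 11423717 in the Nkx2-5Cre libraries. The median cell had 96987.5 and 103309 counts in Isl1Cre, against 123730 and 101791.5 in Nkx2-5Cre. Levels below are library means of CPM, given for library 1 and then library 2, so each group has n = 2. The correlation of log2 levels across genes was 0.943 between the Isl1Cre libraries, 0.961 between the Nkx2-5Cre libraries and 0.936 to 0.941 between lineages; genes are not independent replicates. No cell name was shared between libraries. The labelled tissue was checked with Tnnt2, the cardiac troponin T gene, which reached 1000 CPM in 88.7% and 92.6% of Isl1Cre cells and in 90.4% and 96.6% of Nkx2-5Cre cells. Neural crest markers Sox10, Foxd3 and Pax3 and the endoderm marker Foxa2 were at 0 in all 4 libraries. Y-linked genes were detected in all 4 libraries.

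Few genes passed the test between the lineages at E8.75, with the embryonic globins, endothelial genes and TGF-beta genes among them. Of 10670 genes tested with limma (Benjamini-Hochberg adjusted p under 0.05), 39 were called (0.366%), 29 higher in Isl1Cre (0.272%) and 10 lower (0.0937%). The same contrast called 7.09% of genes at E7.75, 5.03% at E8.25 and, with 1 Isl1Cre library, 0.881% at E9.25, and the numbers of cells and libraries differ between these stages. Both Isl1Cre libraries lay above both Nkx2-5Cre libraries for 20.1% of genes and below them for 20.7%. At an unadjusted p under 0.05, 6.93% of genes were higher in Isl1Cre and 5.38% lower. With the mean of log2(CPM + 1) over cells in place of the mean CPM, which moves the median of all genes to -0.14, 16 genes were called higher and 46 lower. Leaving out Nkx2-5Cre library 1 left 17 calls, and leaving out Isl1Cre library 2 left 26.

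**Figure D1:**
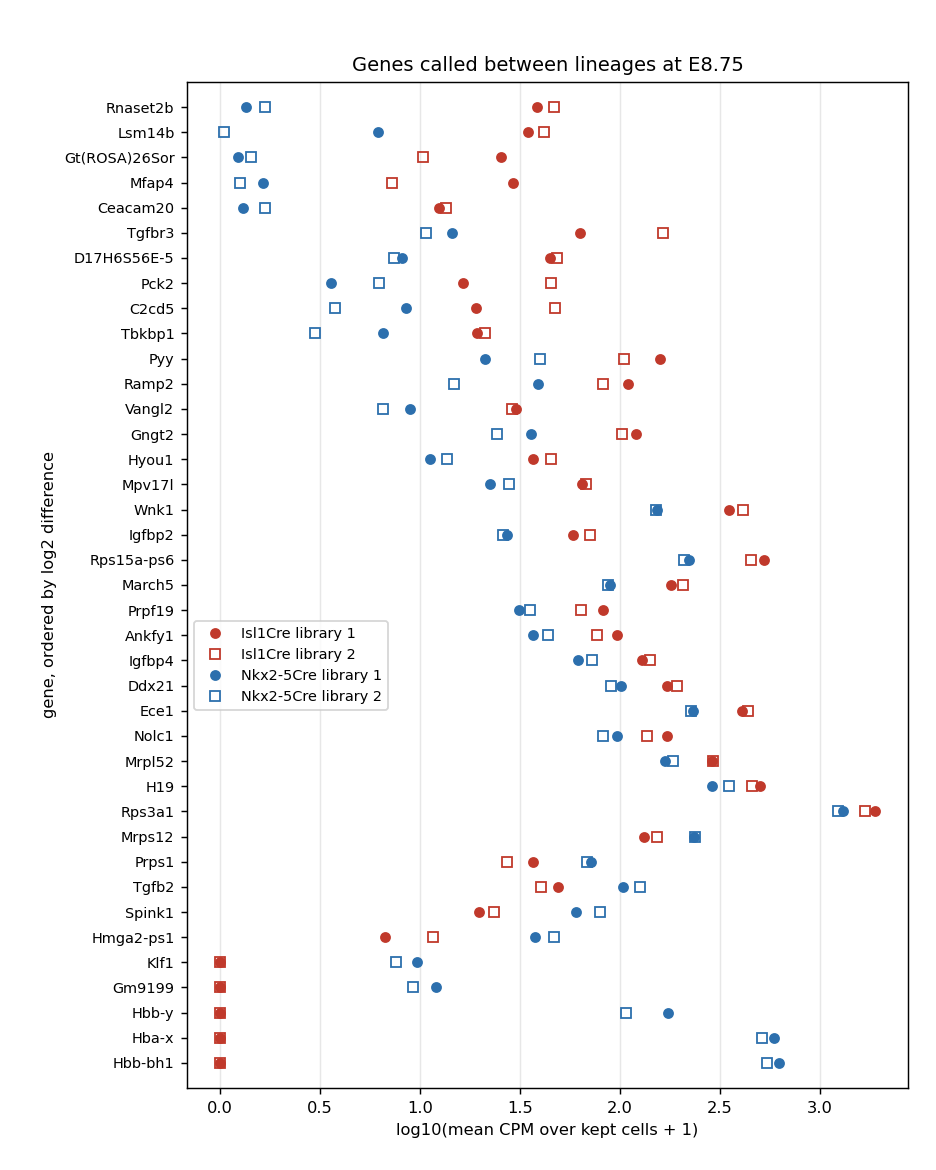
Mean CPM per library, as log10(CPM + 1), of the 39 genes called between Isl1Cre (red) and Nkx2-5Cre (blue) at E8.75; filled circles are library 1 and open squares library 2. The libraries of the 2 lineages do not overlap for any of these genes, and 5 genes lower in Isl1Cre are at 0 in both Isl1Cre libraries. Of all genes tested, 20.1% lie above and 20.7% below in Isl1Cre without overlap.

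The largest differences were in the embryonic globin genes, which encode the haemoglobin chains of primitive red blood cells and were not detected in any Isl1Cre cell. Hbb-bh1, an embryonic beta-like chain, was at 0 and 0 CPM in Isl1Cre, against 628 and 547 CPM in Nkx2-5Cre (limma adjusted p = 1.28e-09). Hba-x, the embryonic alpha-like chain, was at 0 and 0 CPM in Isl1Cre, against 592 and 511 CPM in Nkx2-5Cre (limma adjusted p = 1.65e-09). Hbb-y, another embryonic beta-like chain, was at 0 and 0 CPM in Isl1Cre, against 174 and 107 CPM in Nkx2-5Cre (limma adjusted p = 6.84e-07). Klf1, an erythroid transcription factor gene, was also called, at 0 and 0 CPM in Isl1Cre against 8.71 and 6.64 CPM in Nkx2-5Cre (limma adjusted p = 0.0224). With a floor of 3 counts over the Isl1Cre group, Hbb-bh1 was at least 1804-fold lower in Isl1Cre, Hba-x at least 1611-fold and Hbb-y at least 482-fold. These bounds pool counts over cells, cover counting error only, and include the counts of 2 globin-high Nkx2-5Cre cells described below. DESeq2 called none of the 3 globins (adjusted p 0.0755 for Hbb-bh1, 0.316 for Hba-x and 0.309 for Hbb-y). The call of Hbb-y was also lost with edgeR (adjusted p = 0.0532) and, with limma, in cells with 3000 or more genes (0.0686). A count of 0 in 143 Isl1Cre cells allows a share of cells with a count of up to 2.10%. The globin-high cells, 1 of 94 and 1 of 88 in the Nkx2-5Cre libraries, fall under that limit. Their absence from Isl1Cre therefore does not show a difference in their share.

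The promoters of Hba-x and Hbb-y are shown because these genes moved together; Hbb-bh1 is named only. They are RefSeq sequences of GRCm38.p6, from 250 bases before to 50 after the annotated start, at chr11:32276350-32276649 on the plus strand for Hba-x and chr7:103853158-103853457 on the minus strand for Hbb-y. Capitals mark GATAA, the core letters bound by GATA factors, and CCACCC, the letters of the CACCC box bound by KLF1, searched on both strands.
Hba-x: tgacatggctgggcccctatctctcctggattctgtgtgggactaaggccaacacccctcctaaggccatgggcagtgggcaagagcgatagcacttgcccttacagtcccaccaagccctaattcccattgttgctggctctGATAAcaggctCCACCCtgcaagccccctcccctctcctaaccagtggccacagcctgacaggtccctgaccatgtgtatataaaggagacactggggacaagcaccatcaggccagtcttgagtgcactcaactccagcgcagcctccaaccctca
Hbb-y: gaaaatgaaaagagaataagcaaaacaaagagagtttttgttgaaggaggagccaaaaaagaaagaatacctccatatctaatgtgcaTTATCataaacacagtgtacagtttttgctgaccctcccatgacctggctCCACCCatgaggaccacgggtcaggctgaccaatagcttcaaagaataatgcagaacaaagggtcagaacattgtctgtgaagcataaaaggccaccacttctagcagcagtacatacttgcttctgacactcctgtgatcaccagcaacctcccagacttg
Each promoter holds 1 match to each motif, and in Hbb-y the GATAA match is on the opposite strand. Of 32851 promoters of this length, 25.4% hold GATAA, 31.5% hold CCACCC and 6.37% hold both, so these matches are a description of the letters and not of binding.

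The globin counts in Nkx2-5Cre came from 1 cell per library and from low counts in nearly all others. The 1 cell above 10000 CPM of summed globin devoted 9.42% of its counts to the 3 genes in library 1 and 9.58% in library 2, and held 72.1% and 93.6% of the summed level of the 6 blood markers. Both cells also had heart muscle transcripts, with Tnnt2 at 929 and 2143 CPM. Tnnt2 was, however, detected in every kept cell of both lineages. In Nkx2-5Cre it averaged 541 and 1067 CPM in the 8 and 3 cells marked as endothelial (defined below). It averaged 6994 and 6760 CPM in the unmarked Nkx2-5Cre cells. Whether the 2 high cells were muscle cells was not tested. Of the Nkx2-5Cre cells other than the 2 high cells, 92 of 93 and 84 of 87 carried at least 1 globin count. Their median summed level was 300.0 and 47.5 CPM. Hbb-bh1 made up 55.7% and 69.9% of the globin counts in those cells, against 41.2% and 45.1% in the 1 high cell. Without the 2 high cells, Hbb-bh1 was at least 698-fold lower in Isl1Cre and Hba-x at least 447-fold, with limma adjusted p-values of 7.15e-06 and 0.000518, while Hbb-y had an adjusted p of 0.0718 and Klf1 kept 9 counts. All 6 blood markers were at 0 in both Isl1Cre libraries. Per the labels' protocols the cDNA of the cells was pooled during amplification, and its part in the low counts was not tested.

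**Figure D2:**
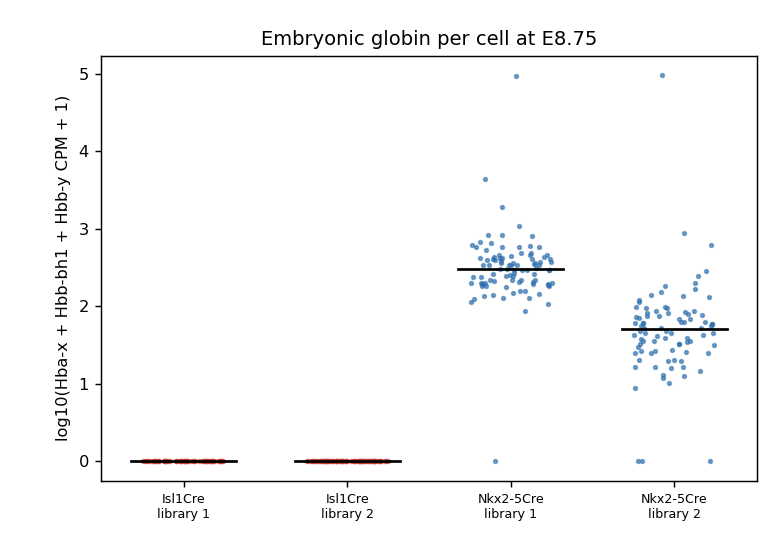
Summed Hba-x, Hbb-bh1 and Hbb-y level of each kept cell, as log10(CPM + 1), in the Isl1Cre libraries (red) and the Nkx2-5Cre libraries (blue); horizontal lines are medians. All 143 Isl1Cre cells are at 0, 1 cell of each Nkx2-5Cre library is above 10000 CPM, and nearly all other Nkx2-5Cre cells are above 0.

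Of 31 endothelial and endocardial genes tested, 2 were called higher and 0 lower, with 12 higher and 0 lower at an unadjusted p under 0.05, against 6.93% and 5.38% of all genes; edgeR called 0 and DESeq2 called 3 higher. Both Isl1Cre libraries lay above both Nkx2-5Cre libraries for 21 of the 31 and below them for 0, against 20.1% and 20.7% of all genes, and the median log2 difference was 1.09, against 0 for all genes tested. The median was 0.62 without Nkx2-5Cre library 2 and 1.61 without Nkx2-5Cre library 1. Ramp2, which partners the calcitonin receptor-like receptor to make an adrenomedullin receptor, had 109 and 81.7 CPM in Isl1Cre, against 37.9 and 13.9 CPM in Nkx2-5Cre (log2 difference 2.00 ± 0.40 SE, limma adjusted p = 0.0290). Gngt2, a G protein gamma subunit gene, had 119 and 102 CPM in Isl1Cre, against 35.1 and 23.3 CPM in Nkx2-5Cre (1.92 ± 0.40, limma adjusted p = 0.0414). The lineages did not overlap for either gene, which the rule for naming called genes required, so this adds no support to the calls. Ramp2 lost its call without Isl1Cre library 1 (limma adjusted p = 0.131), without Isl1Cre library 2 (0.0818) and without Nkx2-5Cre library 2 (log2 difference 1.34, 0.228). Gngt2 lost its call when each of the 4 libraries in turn was left out (limma adjusted p 0.0962 to 0.212), and neither gene was called by edgeR or DESeq2. Plvap, which forms the diaphragms of endothelial openings, did not pass, with 83.2 and 78.3 CPM in Isl1Cre against 37.5 and 12.5 CPM in Nkx2-5Cre (limma adjusted p = 0.114). Ets1, an endothelial transcription factor gene, had 63.4 and 55.4 CPM in Isl1Cre against 24.4 and 7.45 CPM in Nkx2-5Cre (limma adjusted p = 0.106). Nfatc1, a transcription factor gene of the endocardium, had 71.8 and 49.3 CPM in Isl1Cre against 24.7 and 12.7 CPM in Nkx2-5Cre (limma adjusted p = 0.202). Egfl7, a secreted endothelial protein gene, had 172 and 244 CPM in Isl1Cre against 127 and 101 CPM in Nkx2-5Cre (limma adjusted p = 0.210), and Kdr, the VEGF receptor gene, had 11.4 and 5.98 CPM against 17.8 and 11.4 CPM (limma adjusted p = 0.608).

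The share of endothelial-marked cells is not independent of these genes, because its markers include Plvap and Egfl7. This share was higher in both Isl1Cre libraries than in both Nkx2-5Cre libraries, narrowly so for Isl1Cre library 2 (8.64%) against Nkx2-5Cre library 1 (8.51%). Cells with at least 3 of 12 endothelial markers at 50 CPM made up 14.5% (exact 95% interval 6.86% to 25.8%) and 8.64% (3.55% to 17.0%) of the Isl1Cre libraries, and 8.51% (3.75% to 16.1%) and 3.41% (0.71% to 9.64%) of the Nkx2-5Cre libraries. The intervals, which cover counting error only, overlap. In the cells that were not marked, 17 of the 31 genes lay above in Isl1Cre and 2 below without overlap. Their median difference was 0.86, against 1.07 in all kept cells, both without the scaling factors of the limma fit. The share over all genes was not computed in unmarked cells. There, Gngt2 averaged 58.0 and 56.4 CPM in Isl1Cre and 5.73 and 9.89 CPM in Nkx2-5Cre, and Plvap averaged 19.8 and 19.6 CPM in Isl1Cre and 2.14 and 1.28 CPM in Nkx2-5Cre. Plvap was detected in 71.0% and 60.5% of Isl1Cre cells, against 27.7% and 13.6% of Nkx2-5Cre cells. The defining markers Pecam1 and Cdh5 were at 4.75 and 0.786 CPM and at 1.67 and 4.51 CPM in unmarked Isl1Cre cells, against 0.216 and 0.118 CPM and 1.97 and 1.03 CPM in unmarked Nkx2-5Cre cells. The part of marked cells in the result was not tested beyond these values.

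**Figure D3:**
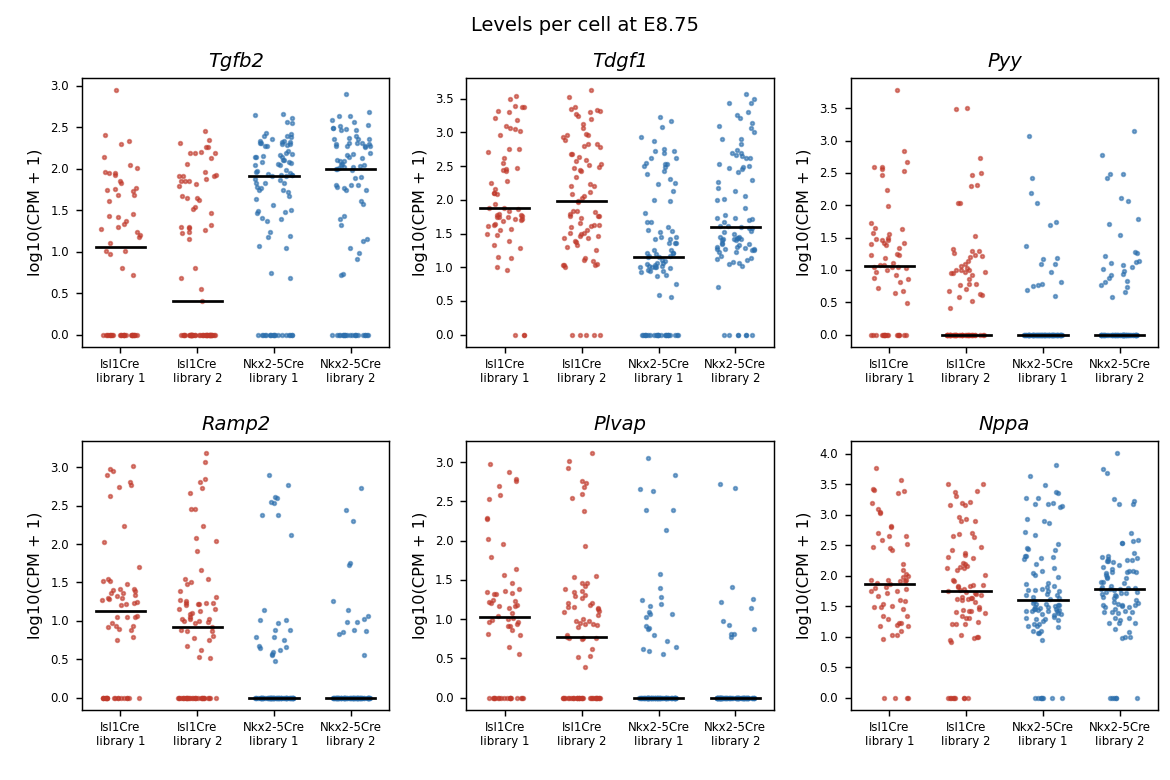
Level per cell, as log10(CPM + 1), of Tgfb2, Tdgf1, Pyy, Ramp2, Plvap and Nppa in the Isl1Cre libraries (red) and the Nkx2-5Cre libraries (blue) at E8.75; horizontal lines are medians over cells. Tgfb2 has the lower medians in Isl1Cre, Ramp2 and Plvap have medians above 0 in Isl1Cre and at 0 in Nkx2-5Cre, and Nppa spans a like range in all 4 libraries.

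A ligand and a co-receptor of transforming growth factor beta signalling differed in opposite directions. Tgfbr3, the betaglycan co-receptor that presents TGF-beta ligands, had 62.2 and 163 CPM in Isl1Cre, against 13.4 and 9.75 CPM in Nkx2-5Cre (gene at chr5:107106570-107289629 in mm10, log2 difference 3.05 ± 0.44 SE, limma adjusted p = 0.00206). Its highest cell held 44.5% of the summed level in Isl1Cre library 2, and it was detected in 43.5% and 55.6% of Isl1Cre cells, against 19.1% and 13.6% of Nkx2-5Cre cells. Without Isl1Cre library 2 its log2 difference was 2.35 and the call was lost (limma adjusted p = 0.0563), and over all alternatives the difference ranged from 2.20 to 3.74. Tgfb2, a TGF-beta ligand gene of the embryonic heart, had 48.2 and 39.3 CPM in Isl1Cre, against 103 and 125 CPM in Nkx2-5Cre (gene at chr1:186622792-186705989, log2 difference -1.35 ± 0.22 SE, limma adjusted p = 0.00675). Its median cell had 10.6 and 1.56 CPM in Isl1Cre, against 79.9 and 97.2 CPM in Nkx2-5Cre. Its call was lost without Isl1Cre library 2 (limma adjusted p = 0.0639) and without Nkx2-5Cre library 2 (0.0836). Of the 20 genes tested in the BMP and TGF-beta list, which does not hold Tgfbr3, Tgfb2 was the 1 called and the median was -0.01. Among the 20, 4 lay above and 4 below without overlap, against 20.1% and 20.7% of all genes. Smad7, an inhibitor induced by the pathway, had 61.2 and 87.3 CPM in Isl1Cre against 37.8 and 35.3 CPM in Nkx2-5Cre (limma adjusted p = 0.145).

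Of 27 outflow tract and anterior heart field genes tested, Pyy was called higher and Tgfb2 lower, with a median of 0.22. Among the 27, 7 lay above and 5 below without overlap, against 20.1% and 20.7% of all genes. Pyy, which encodes the hormone peptide YY, had 158 and 104 CPM in Isl1Cre, against 20.2 and 38.9 CPM in Nkx2-5Cre (gene at chr11:102106676-102107832, log2 difference 2.16 ± 0.38 SE, limma adjusted p = 0.0134). It was detected in 72.6% and 49.4% of Isl1Cre cells, against 19.1% and 33.0% of Nkx2-5Cre cells. In library 1 of each lineage, 1 cell held 61.1% of its summed level. Library 2 also had high cells, at 3233 and 3114 CPM in Isl1Cre and at 1382 CPM in Nkx2-5Cre. The Isl1Cre cell at 3233 CPM had 2165 counts in all. The library means of Pyy thus rest largely on a few cells. The call was lost without Isl1Cre library 1 (1.87, limma adjusted p = 0.0939) and without Nkx2-5Cre library 1 (1.67, 0.164), and the difference ranged from 1.60 to 3.84 over all alternatives. Tdgf1, the Nodal co-receptor Cripto, had 522 and 489 CPM in Isl1Cre, against 136 and 366 CPM in Nkx2-5Cre (1.19 ± 0.29, limma adjusted p = 0.0852). The 2 Nkx2-5Cre libraries differed more from each other than the Isl1Cre libraries did. The limma adjusted p of Tdgf1 was 3.61e-05 without Nkx2-5Cre library 2 and 0.468 without Nkx2-5Cre library 1. Itm2a, a marker of outflow myocardium, had 233 and 197 CPM in Isl1Cre against 225 and 146 CPM in Nkx2-5Cre, and the lineages overlapped.

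Within libraries, the summed chamber and outflow markers of a cell had a Spearman correlation of -0.50 and -0.48 over 62 and 81 Isl1Cre cells, against -0.15 and -0.17 over 94 and 88 Nkx2-5Cre cells. Outflow and atrial or inflow markers had -0.35 and -0.39 in Isl1Cre, against -0.48 and -0.50 in Nkx2-5Cre. These are descriptions over cells that share a library, and sums of markers also share the scaling of each cell to its total.

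Of 21 atrial and inflow genes tested, limma called 0, with 0 higher and 6 lower at an unadjusted p under 0.05, against 6.93% and 5.38% of all genes; edgeR called 0 and DESeq2 called 1 lower. Of the 21, 11 lay below in Isl1Cre without overlap and 1 above, against 20.7% and 20.1% of all genes. The median log2 difference was -0.54, against 0 for all genes tested. Gal, the galanin peptide gene, had 24.7 and 52.7 CPM in Isl1Cre against 73.1 and 92.3 CPM in Nkx2-5Cre (limma adjusted p = 0.229). Hcn4, the pacemaker channel gene, had 0.140 and 1.08 CPM in Isl1Cre against 5.21 and 4.56 CPM in Nkx2-5Cre (limma adjusted p = 0.273). Tbx5, a transcription factor gene of the inflow and atria, had 31.9 and 47.8 CPM in Isl1Cre against 57.2 and 58.7 CPM in Nkx2-5Cre (limma adjusted p = 0.397). Tbx3, a repressor of chamber genes in the conduction system, had 8.48 and 21.5 CPM in Isl1Cre against 40.3 and 37.2 CPM in Nkx2-5Cre (log2 difference -1.43 ± 0.33 SE, limma adjusted p = 0.0705).

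The driver genes themselves did not pass the test. Isl1 had 4.97 and 7.30 CPM in Isl1Cre against 15.4 and 7.98 CPM in Nkx2-5Cre (limma adjusted p = 0.452), and was detected in 12.9% and 19.8% of Isl1Cre cells against 9.57% and 13.6% of Nkx2-5Cre cells. Nkx2-5 had 339 and 342 CPM in Isl1Cre against 218 and 208 CPM in Nkx2-5Cre (0.69 ± 0.16, limma adjusted p = 0.0713), and the lineages did not overlap. Of 26 cardiac transcription factor genes tested, limma called 0, with 3 higher and 4 lower at an unadjusted p under 0.05 (6.93% and 5.38% of all genes). In the same list edgeR called 0 and DESeq2 called 1 higher. Mef2c, a muscle transcription factor gene, had 252 and 239 CPM in Isl1Cre against 238 and 281 CPM in Nkx2-5Cre (limma adjusted p = 0.935), and the lineages overlapped.

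Ventricular chamber, sarcomere and fatty acid genes were called in neither direction by limma, edgeR or DESeq2. Of 22 chamber genes tested, 2 were higher and 3 lower at an unadjusted p under 0.05, against 6.93% and 5.38% of all genes. Among them 3 lay above and 4 below without overlap, against 20.1% and 20.7% of all genes, and the median was 0.00. Nppa, the atrial natriuretic peptide gene, had 492 and 354 CPM in Isl1Cre against 400 and 391 CPM in Nkx2-5Cre (limma adjusted p = 0.938), and Cck, the cholecystokinin gene, had 454 and 642 CPM against 573 and 519 CPM. Nppb, the brain natriuretic peptide gene, had 151 and 74.2 CPM in Isl1Cre against 285 and 276 CPM in Nkx2-5Cre (limma adjusted p = 0.110). Of 39 sarcomere genes tested, 1 was higher and 7 were lower at an unadjusted p under 0.05 (6.93% and 5.38% of all genes). For this list, 16 lay below and 3 above without overlap (20.7% and 20.1% of all genes), with a median of -0.10. Tnnt2 had 5175 and 5506 CPM in Isl1Cre against 6445 and 6566 CPM in Nkx2-5Cre, and Myl7, the atrial myosin light chain gene, had 11487 and 11560 CPM against 11875 and 12610 CPM. Of 29 genes for fatty acid, creatine and muscle mitochondria tested, 1 was higher and 9 were lower at an unadjusted p under 0.05 (6.93% and 5.38% of all genes). In this list, 11 lay below and 3 above without overlap (20.7% and 20.1% of all genes), with a median of -0.26. Fabp3, a fatty acid binding protein gene, had 250.5 and 248 CPM in Isl1Cre against 334 and 380 CPM in Nkx2-5Cre (limma adjusted p = 0.280).

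Among the other lists, limma called Vangl2 of 26 cell junction genes and no gene of the S phase, G2 and M phase, ribosomal, Wnt, FGF, Notch, hedgehog or retinoic acid lists. At an unadjusted p under 0.05, genes higher and lower in Isl1Cre numbered 3 and 4 for S phase, 2 and 0 for G2 and M phase, 4 and 0 for ribosomal genes, 2 and 1 for Wnt, 4 and 1 for FGF, 1 and 0 for Notch, 0 and 1 for hedgehog and 3 and 3 for retinoic acid, against 6.93% and 5.38% of all genes. In these lists edgeR called 1 retinoic acid gene lower, and DESeq2 called 1 FGF gene higher and, of the retinoic acid genes, 1 higher and 2 lower. Their median log2 differences were -0.03 for 30 S phase genes, 0.20 for 38 G2 and M phase genes, 0.06 for 50 ribosomal genes, -0.01 for 24 Wnt genes, 0.01 for 18 FGF genes, 0.16 for 13 Notch genes, -0.44 for 9 hedgehog genes and -0.10 for 17 retinoic acid genes. Vangl2, a planar cell polarity gene, had 29.4 and 27.8 CPM in Isl1Cre against 7.97 and 5.57 CPM in Nkx2-5Cre. Kdr, Pecam1, Cdh5, Smad7, Hcn4, Tbx5, Nppa, Nppb, Fabp3 and Acta1 are outside the rule for named genes and were chosen after their values were seen.

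**Figure D4:**
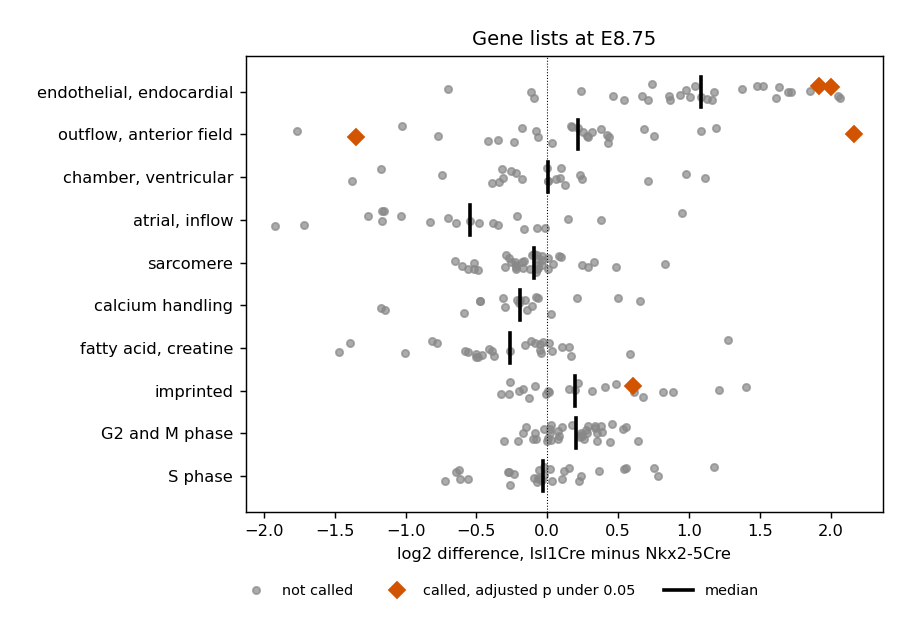
Log2 difference, Isl1Cre minus Nkx2-5Cre, of each tested gene of 10 lists (points), with called genes as diamonds and list medians as black lines. The endothelial list has the median of 1.09 and the atrial and inflow list the median of -0.54, while the chamber and sarcomere lists lie near 0.

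Igfbp2 and Igfbp4, which encode binding proteins of insulin-like growth factors, were higher in Isl1Cre. Igfbp2 had 57.1 and 70.4 CPM in Isl1Cre against 26.2 and 25.2 CPM in Nkx2-5Cre (limma adjusted p = 0.0288), and Igfbp4 had 129 and 141 CPM against 61.1 and 71.7 CPM (limma adjusted p = 0.0350). Igfbp4 averaged 426 and 610 CPM in endothelial-marked Isl1Cre cells and 78.3 and 96.4 CPM in the other Isl1Cre cells, and it averaged 372 and 462 CPM in marked Nkx2-5Cre cells and 32.2 and 57.9 CPM in the other Nkx2-5Cre cells. Ece1, which activates endothelins, had 410 and 437 CPM in Isl1Cre against 232 and 225 CPM in Nkx2-5Cre (limma adjusted p = 0.0225). Ece1 too was higher in marked cells, at 1325 and 2373 CPM in Isl1Cre, against 255 and 254 CPM in the other Isl1Cre cells, and at 1290 and 1714 CPM in marked Nkx2-5Cre cells, against 133 and 173 CPM in the other Nkx2-5Cre cells. When marked cells were left out, the log2 difference of Igfbp4 was 1.00 (limma adjusted p = 0.133, against 1.03 in all cells) and that of Ece1 was 0.755 (limma adjusted p = 0.116, against 0.90 in all cells). The imprinted growth RNA H19 had 503 and 455 CPM in Isl1Cre against 288 and 349 CPM in Nkx2-5Cre (limma adjusted p = 0.0470). It was the 1 called of 23 imprinted genes tested, where 0.272% of all genes were called higher. At an unadjusted limma p under 0.05, 9 of the 23 were higher and 0 lower, against 6.93% and 5.38% of all genes. Among the 23, 9 lay above and 1 below without overlap, against 20.1% and 20.7% of all genes. Cdkn1c, an inhibitor of the cell cycle, had 1135 and 967 CPM in Isl1Cre against 798 and 797 CPM in Nkx2-5Cre (limma adjusted p = 0.277). Igf2, the growth factor gene next to H19, had 512 and 453 CPM in Isl1Cre against 512 and 452 CPM in Nkx2-5Cre, and the lineages overlapped.

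Wnk1, a kinase that regulates ion transport, had 349 and 414 CPM in Isl1Cre against 152 and 150 CPM in Nkx2-5Cre (1.34 ± 0.23, limma adjusted p = 0.0128). March5, a mitochondrial ubiquitin ligase gene, had 179 and 206 CPM in Isl1Cre against 88.5 and 86.0 CPM in Nkx2-5Cre (limma adjusted p = 0.00439). Mpv17l, Ankfy1, Prpf19 and Ddx21 were also called higher, with log2 differences of 0.94 to 1.41; Ddx21 is an RNA helicase of ribosome production and Prpf19 a splicing factor. Prps1, which makes the nucleotide precursor phosphoribosyl pyrophosphate, had 35.6 and 26.4 CPM in Isl1Cre against 70.9 and 67.4 CPM in Nkx2-5Cre (limma adjusted p = 0.0190), and Mrps12, a mitochondrial ribosome gene, had 131 and 152 CPM against 234 and 237 CPM (limma adjusted p = 0.0350). Spink1, a trypsin inhibitor gene of the endoderm list, had 18.7 and 22.4 CPM in Isl1Cre against 59.1 and 78.5 CPM in Nkx2-5Cre (limma adjusted p = 0.0290). Rps15a-ps6, a ribosomal protein pseudogene whose counts may be shared with its parent gene, had 523 and 453 CPM in Isl1Cre against 222 and 209 CPM in Nkx2-5Cre (limma adjusted p = 1.04e-04). Chosen after its values were seen, Gt(ROSA)26Sor, the transcript of the locus that holds the reporter, had 24.4 and 9.36 CPM in Isl1Cre against 0.233 and 0.434 CPM in Nkx2-5Cre (limma adjusted p = 5.28e-04). Also chosen after their values were seen, the genes Hyou1, a chaperone of the endoplasmic reticulum, and Pck2, a mitochondrial enzyme of glucose production, were called higher. Hyou1 had 35.7 and 44.2 CPM in Isl1Cre against 10.3 and 12.6 CPM in Nkx2-5Cre (limma adjusted p = 0.0217). Pck2 had 15.4 and 44.5 CPM in Isl1Cre against 2.58 and 5.23 CPM in Nkx2-5Cre (limma adjusted p = 0.0224). Likewise chosen, Rnaset2b, which has a near-identical copy, had 37.7 and 45.8 CPM in Isl1Cre against 0.348 and 0.681 CPM in Nkx2-5Cre (limma adjusted p = 1.27e-05). Rnaset2b had 38.9 and 36.1 CPM in Isl1Cre against 36.4 and 47.8 CPM in Nkx2-5Cre at E8.25, and 40.4 CPM in the single Isl1Cre library against 0.451 and 0.382 CPM in Nkx2-5Cre at E9.25. All 21 genes that the rule named kept their direction in every alternative that gave a value, but with 1 library left out, and the lone library of its arm assumed to vary like the others, 9 and 5 of the 21 calls held without Isl1Cre library 1 and 2, and 7 and 8 held without Nkx2-5Cre library 1 and 2.

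The lineage difference at E8.75 was then tested against the mean of the same difference at the other 3 stages, which called 77 genes (0.722%), 57 higher (0.534%) and 20 lower (0.187%). Pyy differed most among the named genes that were higher, by 3.85 ± 0.45 on the log2 scale (limma adjusted p = 1.31e-04), then Plvap by 3.56 ± 0.57 (0.00458), Gngt2 by 3.48 ± 0.48 (9.91e-04), Ramp2 by 3.25 ± 0.47 (0.00166), Tgfbr3 by 2.97 ± 0.52 (0.00850) and Tdgf1 by 2.02 ± 0.34 (0.00724). Pyy had 33.8 and 47.9 CPM in Isl1Cre against 94.9 and 52.2 CPM in Nkx2-5Cre at E8.25, and 5.72 CPM in the single Isl1Cre library against 56.6 and 32.9 CPM in Nkx2-5Cre at E9.25. Of the 31 endothelial genes, 5 were higher at E8.75 relative to the other stages and 0 lower, and their median log2 difference was 0.68 at E7.75, fell below 0 at E8.25 (-0.88), was 1.09 at E8.75 and was -1.91 at E9.25. Tbx3 was lower relative to the other stages by -1.90 ± 0.39 (limma adjusted p = 0.0234), with 48.6 and 47.0 CPM in Isl1Cre against 19.5 and 17.7 CPM in Nkx2-5Cre at E8.25. Hbb-bh1 was at 169 CPM in the Isl1Cre library of E9.25 and at 0.151 and 0.25 CPM in the Nkx2-5Cre libraries of that stage. Sarcomere genes had a median difference of -1.09 at E7.75, then -0.77 (E8.25), -0.10 (E8.75) and 0.40 (E9.25). The lineage difference of Acta1, Myh7 and Myl3 was higher at E8.75 than its mean over the other stages. Myl3 itself lay lower in Isl1Cre at E8.75, with 2579 and 2923 CPM against 3424 and 3200 CPM in Nkx2-5Cre. Acta1, the skeletal alpha-actin gene, had 1529 and 1616 CPM in Isl1Cre against 1148 and 1121 CPM in Nkx2-5Cre at E8.75, and 618 and 614 CPM against 1538 and 1126 CPM at E8.25. Against E8.25 alone, 112 genes differed (1.05%), 63 higher (0.59%) and 49 lower (0.459%). Of 16 endoderm genes tested, 1 was among the higher calls and 7 among the lower, and the list's median lineage difference was 2.71 at E8.25 and 0.00 at E8.75. Ttr, a carrier protein gene of the yolk sac endoderm, had 131 and 81.9 CPM in Isl1Cre against 1.00 and 1.20 CPM in Nkx2-5Cre at E8.25, and 0 and 0 CPM against 0.344 and 2.37 CPM at E8.75. Epcam, an epithelial adhesion gene, had 16.9 and 26.8 CPM in Isl1Cre against 0.374 and 1.04 CPM in Nkx2-5Cre at E8.25, and was at 0 in both Isl1Cre libraries at E8.75. Ttr and Epcam were chosen after their values were seen, and the part of endoderm cells at E8.25 in this comparison was not tested. Some genes called at E8.75 had a log2 difference of the same sign at E7.75, E8.25 and E9.25. In that order, Vangl2 had 2.83, 3.10 and 1.97, and Mpv17l had 0.99, 1.83 and 1.46. Wnk1 had 0.69, 0.94 and 1.37, and Tgfb2 had -0.47, -0.88 and -0.68. A call at E8.75 thus does not mark a difference of that stage alone. The stages come from different embryos, and Isl1Cre at E9.25 has 1 library. Without Nkx2-5Cre library 2 at E8.75, 23 genes were called against the other stages and 67 against E8.25, and without Isl1Cre library 2, 45 and 56.

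**Figure D5:**
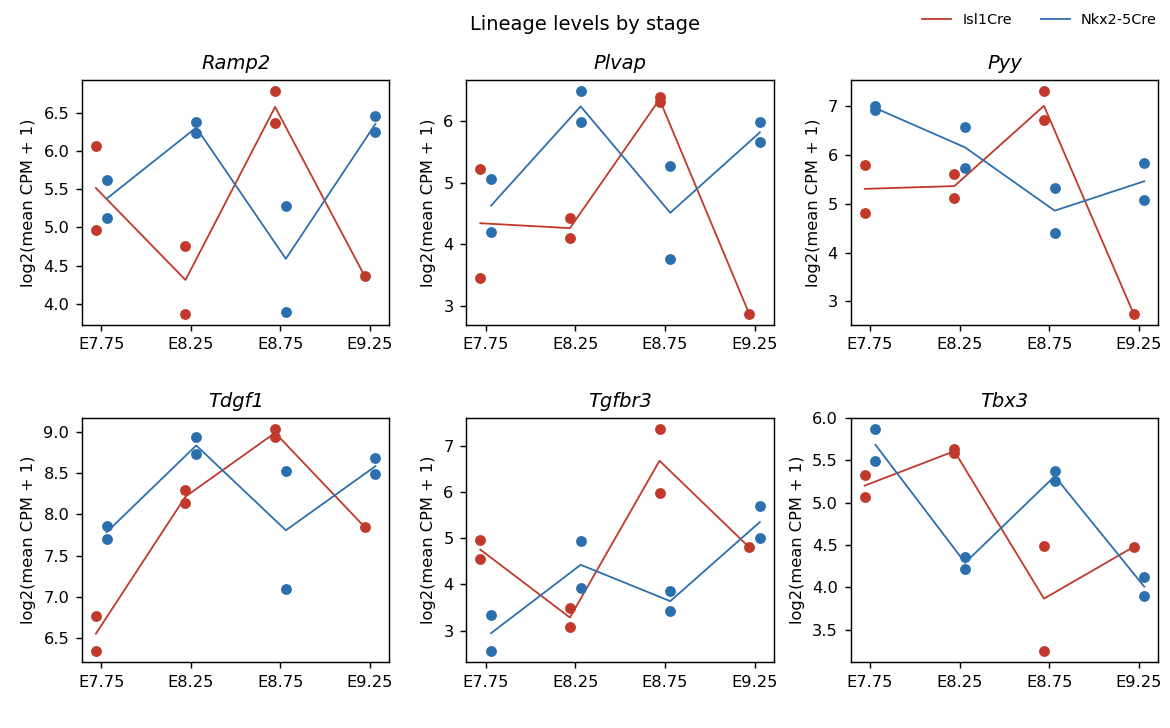
Library levels, as log2(mean CPM + 1), of Ramp2, Plvap, Pyy, Tdgf1, Tgfbr3 and Tbx3 by stage in Isl1Cre (red) and Nkx2-5Cre (blue); points are libraries and lines join group means. At E8.75 the first 5 genes lie higher in Isl1Cre and Tbx3 lower, while at E8.25 Ramp2, Plvap, Pyy, Tdgf1 and Tgfbr3 lie lower in Isl1Cre and Tbx3 higher.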

How the data were processed

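RNA was measured in single cells of 15 libraries from 8 groups of Cre lineage and stage, grouped by titles, whose I and N were read as the Isl1Cre and Nkx2-5Cre mice of the series' design text. Gene positions are from GENCODE vM21 (mm10). Per the labels' protocols, a modified Smart-seq2 method, in which primers carried a barcode of 8 nt and a molecular identifier of 8 nt, captured 3' ends, sequenced as 150 bp paired ends. Per the submitters' processing notes, the tools were HTSeq, TopHat2 2.0.12 and CASAVA 1.8, with the mm10 build. The deposited values are CPM per gene and cell for 23154 genes, scaled by the authors. In every library 100% of low values were whole multiples of a per-cell step within 0.1 of a step, so counts were recovered from the deposited CPM for the count tests; the labels do not say whether they are reads or identifiers. No doublet caller was run.

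Cells with at least 1000 genes were kept, and a library is the mean CPM over them. limma 3.58.1 (R 4.3.3; trended empirical Bayes) was run on log2(mean CPM + 1) with TMM factors of 0.957 to 1.04, for genes at 5 CPM or more in at least 2 libraries, fitting a mean for each group (7 residual degrees of freedom); the pseudocount of 1 understates differences of low genes. edgeR 4.0.16 and DESeq2 1.42.0 on summed counts were alternatives, and the fits were tested on simulated data. Intervals are exact 95% binomial intervals and floors are 3 counts, both for counting error only. An exact permutation of 2 against 2 libraries cannot go below 0.333. Replicate libraries differed beyond counting noise (chi-square per degree of freedom 17.8 in Isl1Cre, 24.2 in Nkx2-5Cre). Named genes were the 14 called genes of largest difference in each direction with at least 30 CPM and no overlap, 6 in each direction against the other stages, the drivers, and per list up to 4 called and 4 uncalled members. The members and lists were chosen with earlier results of these data known.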

Additional observations from a re-analysis of the deposited data

Results flagged for a closer look

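These genes drew attention because their lineage difference at E8.75, Isl1Cre minus Nkx2-5Cre, differed from that at other stages by the interaction test of limma. Values are log2 differences of differences. Relative to the mean of the other 3 stages, genes higher in Isl1Cre were Pyy (3.85), Plvap (3.56), Gngt2 (3.48), Ramp2 (3.25), Tgfbr3 (2.97), Tdgf1 (2.02), Igfbp4 (1.71), Ece1 (1.01), Rps15a-ps6 (0.92), H19 (0.88). Genes lower in Isl1Cre relative to those stages were Hbb-bh1 (-11.63), Hba-x (-10.83), Hbb-y (-6.79), Klf1 (-3.15), Spink1 (-2.92), Tmed5 (-1.99), Tbx3 (-1.90), Epb4.1l4aos (-1.63). Relative to E8.25 alone, genes higher in Isl1Cre were Tgfbr3 (4.21), Ramp2 (4.02), Plvap (3.85), Gngt2 (3.34), Pyy (2.98), Tdgf1 (1.83). Genes lower relative to E8.25 were Hbb-bh1 (-9.28), Hba-x (-9.10), Hbb-y (-7.10), Spink1 (-4.41), Tbx3 (-2.73), Tmed5 (-1.99), Epb4.1l4aos (-1.85), Rps15a-ps6 (-0.99). Rps15a-ps6, a pseudogene, turned its sign between the 2 comparisons. The globin and Klf1 values rest on 0 counts in Isl1Cre and depend on the pseudocount, so they are no measure of a fold. Groups of 2 libraries are too small for a test of single outlying libraries.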

How the results depend on the processing

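At E8.75, 39 genes were called. The count was 61 with a pseudocount of 10, 12 with cells thinned to 5000 counts, 62 with the mean of log2 values over cells, 19 with edgeR and 123 with DESeq2. It ranged from 17 to 38 when a library was left out. Against the other stages, 77 genes became 38 with no filter on low values, 22 with thinning, 33 with edgeR and 160 with DESeq2, with a range of 23 to 66 on leaving out a library. Against E8.25, 112 genes became 58 with no filter, 22 with thinning, 216 with the mean of log2 values, 298 with DESeq2 and 189 without each gene's highest cell, with a range of 56 to 99 on leaving out a library. With no filter, 10 of the 30 calls at E8.75 were higher, and 11 were shared with the 39. The cause of these moves was not tested. Other settings, including no TMM factors (41), the 4 libraries of E8.75 alone (56) and cells with fewer than 3 endothelial markers at 50 CPM (32), stayed within 1.5 times. Leaving out the 2 globin-high cells, chosen after seeing the data, gave 36.

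The library number as a replicate block gave 47 calls at E8.75, 82 against the other stages and 129 against E8.25. The labels do not say that the library numbers pair samples across lineages. The correlation of the difference between library 1 and library 2 across lineages was 0.02, which cannot show whether the numbers mark a shared day or litter. The block ended no call among the 21 named genes. Tdgf1, not called without it, had an adjusted p of 0.0369 with it.

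Over 31 named genes and their alternatives, 431 of 611 results kept direction and side of the threshold, 165 lost the call, 14 gained it and 1 reversed: Isl1, not called, moved to 0.0917 with the mean of log2 values. Hba-x, Hbb-bh1, Hbb-y and Rps15a-ps6 kept their call when each library was left out. Without each gene's highest cell, 18 of the 20 named calls still tested were kept. Each lineage has 2 libraries, of 8167445 to 14893165 counts.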
